A study of Homo sapiens with 6 samples.

Results

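The HOX cluster genes were examined in C4-2B parental and C4-2B enzalutamide resistant prostate cancer cells. Of the 58024 genes of the expression table, 38 were members, chosen as those whose symbol is HOX, a cluster letter from A to D and a number, with HOXB13 left out. The HOXA cluster on chromosome 7 held 11 members, and the HOXB cluster on chromosome 17, the HOXC cluster on chromosome 12 and the HOXD cluster on chromosome 2 held 9 each.

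HOX genes encode transcription factors that bind DNA through a homeodomain and give cells their position along the head-to-tail axis. The genes of a cluster lie in a row in the order of their numbers, and genes with the same number in different clusters are paralogs, descended from a shared ancestral gene. Low numbers are used towards the head and high numbers towards the tail, and the prostate arises in the posterior territory of the highest numbers. Adult tissues keep part of this pattern as a record of where they came from, with Polycomb proteins holding unused clusters silent.

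The study asked how gene expression differs between cells that have acquired resistance to enzalutamide, an inhibitor of the androgen receptor, and the cells they came from. C4-2B is a castration-resistant line that descends from LNCaP through C4-2, and both groups carry this background. The 3 resistant libraries came from C4-2B cells passaged in enzalutamide raised from 1 to 20 µM over at least 6 months and then kept in 5 µM, with the surviving fraction pooled. The 3 parental libraries came from cells passaged alongside in the vehicle, dimethyl sulfoxide, given as 1% in the series description and as a lower concentration in the study's methods. Extraction is described after 10 µM enzalutamide in wording that names both groups, so the exposure of the parental cells at harvest is unclear. Nothing in the labels says whether the libraries of a group came from separate cultures, so p-values measure the spread between libraries, which may be technical.

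Expression was measured by single-end RNA-Seq of 50 bp reads and given in FPKM, fragment counts scaled to the length of the transcript and the size of the library. The summed FPKM per library was between 792975 and 870110, and the smallest steps between values put the depth at an estimated 13500000 to 20500000 reads, so that 1 read on a transcript of 2000 bases was worth 0.0271 to 0.0411 FPKM. The luminal prostate list of 8 markers summed to 3753 to 4459 FPKM in parental and 841 to 898 FPKM in resistant libraries, with KRT8, KRT18 and EPCAM at 63.2 FPKM or more in every library. The basal, endothelial and immune markers each had a mean below 1 FPKM in both groups. The 6 fibroblast markers summed to 6.17 to 9.08 FPKM in parental and 7.84 to 12.4 FPKM in resistant libraries, and did not all move the same way. COL1A1 had means of 6.71 FPKM in parental and 4.39 FPKM in resistant cells, while DCN was listed at 0 in every parental library and at 3.63 to 4.35 FPKM in the resistant libraries. The 4 neuroendocrine markers summed to 0.926 to 2.37 FPKM in parental and 47 to 54.2 FPKM in resistant libraries, nearly all of it SYP, while CHGA and INSM1 had means below 1 FPKM in both groups. The part of these markers in the HOX differences was not tested. In bulk RNA, fewer cells that express a gene and less RNA per cell cannot be told apart.

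The cells used 3 of the 4 clusters. Among the 38 members, 31 were above 0 in at least 1 library and 7 were listed at 0 in every library, namely HOXB1, HOXB2, HOXD1, HOXD4, HOXD9, HOXD11 and HOXD12. A mean of at least 1 FPKM was reached by 14 members in parental and by 18 members in resistant cells. The filter on low values, set at 0.1 FPKM on average across the 6 libraries, was passed by 28 members. Of these, HOXA2, HOXB4, HOXB8 and HOXC11 had a parental mean below 0.1 FPKM and HOXD13 a resistant mean below it, so they passed through the group in which they were higher. Any p-value given for them below is no separate support for a difference.

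Resistant cells differed from parental cells in most of the HOX genes they expressed, and in both directions. By limma on log2(FPKM + 0.1) with Benjamini-Hochberg adjustment over all genes tested, 14 members were higher in resistant cells at an adjusted p below 0.05, 4 were lower and 10 did not pass. Over all 24468 genes tested, 44.4% passed, 22.1% as higher and 22.3% as lower, and among protein-coding genes 28.9% were higher and 26.7% lower. The median log2 fold change was 0.99 for the 28 members tested and -0.05 for all genes. The 3 resistant values lay wholly above the parental values for 14 members and wholly below for 5, beside 26.6% and 28.1% of all genes tested, 54.8% in both directions together. A log2 fold change here is on the log2(FPKM + 0.1) scale, which understates the change of low genes.

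**Figure D1:**
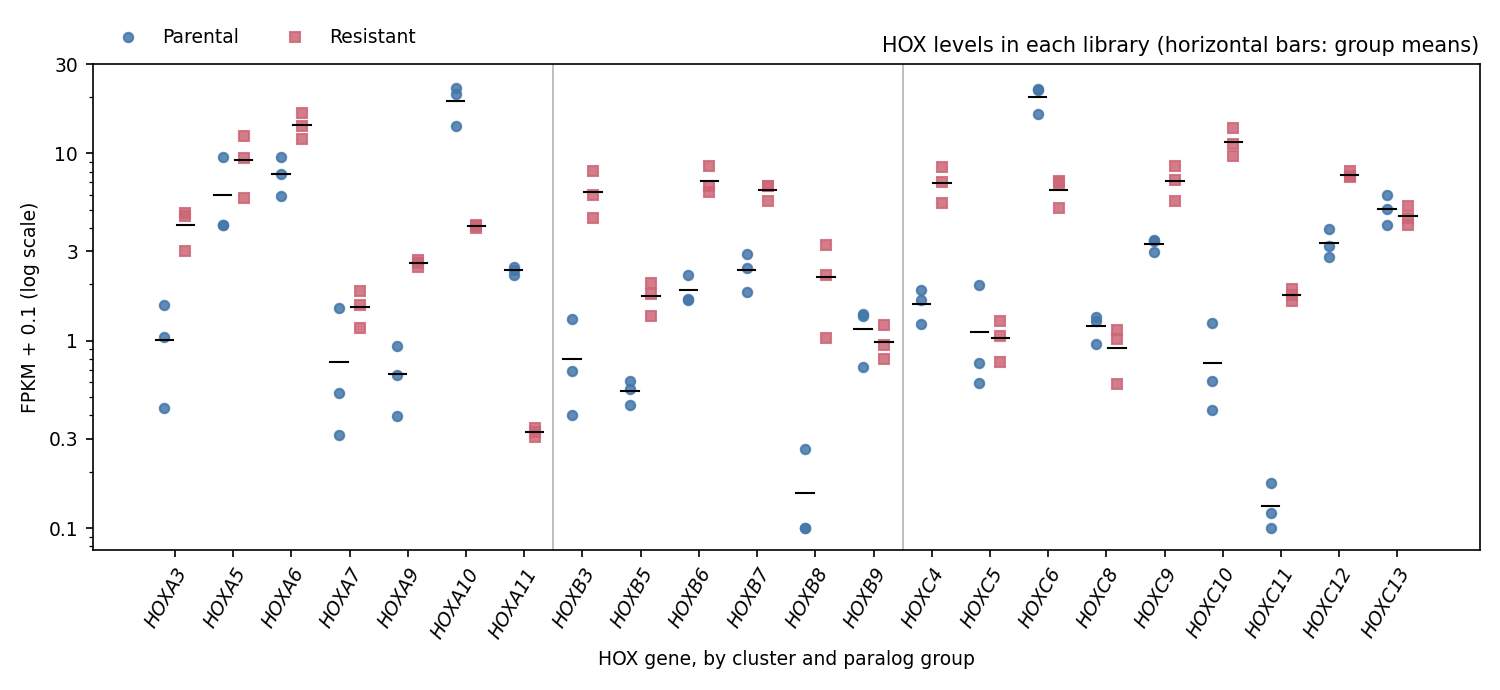
FPKM + 0.1 on a log axis for the 22 HOX genes that averaged 1 FPKM or more in either group, by cluster and paralog number, with the 3 parental libraries as circles, the 3 resistant libraries as squares and the group means as horizontal bars. HOXA10 and HOXC6 stood highest in the parental libraries, and HOXA6 and HOXC10 in the resistant libraries.

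The pair of genes that led the parental HOX profile, HOXA10 and HOXC6, was replaced at the top of the resistant profile by HOXA6 and HOXC10. HOXA10 patterns the limbs and the reproductive tract, and HOXC6 is a gene of the thoracic region whose transcript is used as a urine marker of prostate cancer. HOXA10 and HOXC6 were the top 2 members in every parental library and made up 42.05 to 53.1% of its summed HOX FPKM. HOXA6 and HOXC10 were first and second in every resistant library and made up 20.3 to 25.6% of the sum. The summed HOX FPKM was less concentrated in its top 2 genes in every resistant library than in any parental library.

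HOXA10 and HOXC10, and likewise HOXA11 and HOXC11, are paralogs whose levels moved in opposite directions. The homeobox of each, the 180 bases that encode the homeodomain, is printed below to show how far the sequences of a pair differ, since reads of 50 bases from near-identical genes could be assigned to the wrong one. All 4 stretches lie in exon 2 of 2 of the coding transcript, are given 5′ to 3′ on the gene's strand from GRCh38, and carry capitals at the bases where a gene differs from its paralog. HOXA10 lies at chr7:27171947-27172126 on the minus strand, HOXC10 at chr12:53989219-53989398 on the plus strand, HOXA11 at chr7:27182838-27183017 on the minus strand and HOXC11 at chr12:53975192-53975371 on the plus strand.
HOXA10: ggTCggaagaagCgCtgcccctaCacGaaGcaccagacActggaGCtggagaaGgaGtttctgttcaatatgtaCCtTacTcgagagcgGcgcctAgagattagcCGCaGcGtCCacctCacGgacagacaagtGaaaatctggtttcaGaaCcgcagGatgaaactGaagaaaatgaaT
HOXC10: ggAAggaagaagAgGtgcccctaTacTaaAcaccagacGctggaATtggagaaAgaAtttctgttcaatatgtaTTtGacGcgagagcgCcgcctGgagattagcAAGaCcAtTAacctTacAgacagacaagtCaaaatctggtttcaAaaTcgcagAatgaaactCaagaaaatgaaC
HOXA11: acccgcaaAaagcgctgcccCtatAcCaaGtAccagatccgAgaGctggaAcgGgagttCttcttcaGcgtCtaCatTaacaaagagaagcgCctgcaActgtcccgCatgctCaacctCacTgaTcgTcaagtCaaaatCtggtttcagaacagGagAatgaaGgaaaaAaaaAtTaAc
HOXC11: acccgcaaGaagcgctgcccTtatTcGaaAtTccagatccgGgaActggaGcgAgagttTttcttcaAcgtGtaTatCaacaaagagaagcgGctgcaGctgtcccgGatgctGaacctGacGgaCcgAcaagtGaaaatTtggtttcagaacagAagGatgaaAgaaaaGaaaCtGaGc
The HOXA10 and HOXC10 homeoboxes differed at 33 bases and were 81.7% identical, and their longest shared run was 17 bases. The HOXA11 and HOXC11 homeoboxes differed at 32 bases, with 82.2% identity and a longest shared run of 14 bases. In these most conserved parts of the genes, no shared run was as long as a read. Over whole GENCODE v44 transcripts, the only 50-base stretches that members of different clusters shared were 13 between HOXB3 and HOXD3, which made up 0.17% of the HOXB3 stretches.

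HOXA10 was at 22.3, 13.97 and 20.7 FPKM in the parental and at 3.998, 4.05 and 3.92 FPKM in the resistant libraries. Every resistant value was well below every parental value, and the resistant libraries were nearly equal. The log2 fold change was -2.19 ± 0.19 (SE), with an adjusted p of 0.000268 (limma, n = 3 per group). HOXC10, a gene of the lumbar region and hindlimb, was at 0.326, 0.507 and 1.14 FPKM in the parental and at 9.56, 11.1 and 13.6 FPKM in the resistant libraries. It came second only to HOXA6 in the resistant libraries, with a log2 fold change of 4.06 ± 0.41 and an adjusted p of 0.000469 (limma), and the mean FPKM was 17.4-fold higher. HOXA10 made up 96.6% ± 1.89 (SD, n = 3) of the sum of the pair in parental cells and 26.2% ± 3.60 in resistant cells.

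HOXA11 and HOXC11 moved apart in the same way at lower levels. HOXA11, which patterns the forearm and the reproductive tract, was at 2.15, 2.29 and 2.38 FPKM in the parental and at 0.243, 0.206 and 0.225 FPKM in the resistant libraries, a log2 fold change of -2.87 ± 0.27 (adjusted p = 0.000361, limma). HOXC11 was at 0.020, 0.0731 and 0 FPKM in the parental and at 1.67, 1.54 and 1.78 FPKM in the resistant libraries. The parental values of HOXC11 correspond to an estimated 0 to 4 reads, and its log2 fold change was 3.79 ± 0.38 (adjusted p = 0.000441, limma). The share of HOXA11 in the sum of this pair went from 98.7% ± 1.59 (SD, n = 3) to 11.9% ± 0.757. The sum of all members with the number 10 was 14.5 to 22.7 FPKM in parental and 13.6 to 17.5 FPKM in resistant libraries, ranges that overlapped. The sum of those with the number 11 was 2.17 to 2.38 and 1.74 to 2.01 FPKM, lower in resistant libraries without overlap. Whether a paralog takes the place of another was not tested.

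In paralog group 6, the directions were the other way between HOXA and HOXC. HOXC6 was at 21.8, 16.2 and 21.9 FPKM in the parental and at 6.84, 7.04 and 5.01 FPKM in the resistant libraries, and fell by 1.65 ± 0.19 on the log2 scale (adjusted p = 0.000792, limma). HOXA6, another gene of the thoracic region, was at 7.67, 9.48 and 5.82 FPKM in the parental and at 11.9, 13.9 and 16.4 FPKM in the resistant libraries, without overlap. Its rise was small, with a log2 fold change of 0.88 ± 0.21 (adjusted p = 0.0159, limma), and it did not pass without resistant replicate 1 (0.0511) or without resistant replicate 2 (0.0593). HOXB6, known from the early erythroid lineage, was at 2.15, 1.56 and 1.57 FPKM in the parental and at 8.48, 6.59 and 6.15 FPKM in the resistant libraries (log2 fold change 1.95 ± 0.22, adjusted p = 0.000672, limma). HOXC6 went from 72.0% ± 8.17 (SD, n = 3) to 31.2% ± 6.86 of its sum with HOXA6, and from 91.8% ± 1.26 to 47.1% ± 3.96 of its sum with HOXB6. The group sum was 27.2 to 31.7 FPKM in parental and 27.2 to 27.6 FPKM in resistant libraries, ranges that overlapped.

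**Figure D2:**
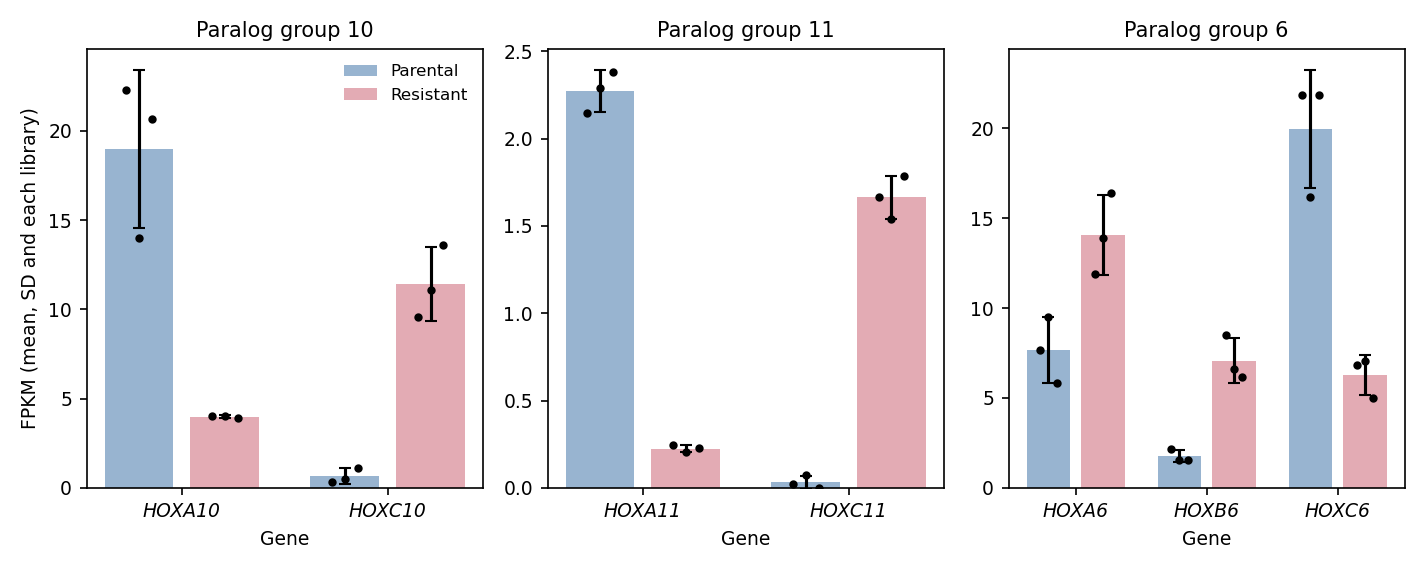
FPKM of HOXA10 and HOXC10, of HOXA11 and HOXC11, and of HOXA6, HOXB6 and HOXC6 in parental and resistant cells, with bars for the mean, error bars for the SD of 3 libraries and points for each library. HOXA10, HOXA11 and HOXC6 were lower in resistant cells while their paralogs HOXC10, HOXC11, HOXA6 and HOXB6 were higher.

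These were the 4 paralog pairs, among 20 pairs with both genes tested, whose members both passed and moved in opposite directions. Another 4 pairs moved together, and all of these were higher in resistant cells: HOXA3 with HOXB3, HOXB4 with HOXC4, HOXA6 with HOXB6 and HOXA9 with HOXC9. In the remaining 12 pairs at least 1 gene did not pass. HOXC11 and HOXB4 passed the filter only through the resistant group, so the pairs HOXA11 with HOXC11 and HOXB4 with HOXC4 are no separate support. These counts were not compared with pairs of other genes.

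Within HOXA, the change turned from higher to lower between neighbouring genes. Of its 11 members, all tested, 3 were higher in resistant cells, 2 were lower and 6 did not pass, so that 45.5% passed beside 44.4% of all genes. HOXA3, which is needed for the thymus and parathyroid, was at 0.943, 1.44 and 0.335 FPKM in the parental and at 4.68, 2.90 and 4.56 FPKM in the resistant libraries. Every resistant value was above every parental value. The log2 fold change was 2.19 ± 0.50 (adjusted p = 0.0130, limma), but the gene did not pass without resistant replicate 0 (0.0511) or without resistant replicate 2 (0.0535). HOXA9, a gene best known for its role in blood progenitors and leukaemia, was at 0.832, 0.296 and 0.558 FPKM in the parental and at 2.58, 2.49 and 2.39 FPKM in the resistant libraries (log2 fold change 2.05 ± 0.37, adjusted p = 0.00492, limma). HOXA9 and HOXA10 were the only pair of neighbours, of 24 tested in the 4 clusters, that both passed and moved in opposite directions, and their annotated spans on the minus strand of chromosome 7 overlap (27162438 to 27175180 and 27170605 to 27180261, GRCh38). Another 9 neighbouring pairs both passed and moved together. Several of these include HOXB4, HOXB8 or HOXC11, which passed the filter only through the resistant group, so they are no separate support. No such share was computed for neighbouring pairs over all genes. The transcripts of HOXA9 and HOXA10 share stretches with the readthrough gene HOXA10-HOXA9, chosen after its values were seen, which was listed at 0 in 5 of the 6 libraries.

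HOXA5 and HOXA7, on either side of HOXA6, did not pass. HOXA5, which is needed for the lung, was at 4.03, 4.07 and 9.51 FPKM in the parental and at 9.39, 5.68 and 12.4 FPKM in the resistant libraries, with an adjusted p of 0.241 (limma). Parental replicate 2 lay within the resistant range. HOXA7 was at 0.424, 0.212 and 1.39 FPKM in the parental and at 1.07, 1.45 and 1.74 FPKM in the resistant libraries (adjusted p = 0.140, limma), again with an overlap through parental replicate 2, and without that replicate its adjusted p was 0.0199. HOXA2, HOXA4 and HOXA13 had means of 0.0730 to 0.786 FPKM in either group and did not pass. HOXA13, which shapes the digits and the hindgut and urogenital outlets, had means of 0.632 and 0.635 FPKM.

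HOXB was the cluster in which nearly every expressed member rose. Of 9 members, 7 were tested, 6 were higher in resistant cells and none was lower, so that 85.7% passed as higher beside 22.1% of all genes. Among the 6, HOXB4 and HOXB8 passed the filter only through the resistant group, so their calls are no separate support. HOXB3 was at 0.592, 0.304 and 1.21 FPKM in the parental and at 7.99, 4.41 and 5.91 FPKM in the resistant libraries (log2 fold change 3.07 ± 0.47, adjusted p = 0.00261, limma). Its lowest resistant value was well above its highest parental value. HOXB5 was at 0.507, 0.352 and 0.452 FPKM in the parental and at 1.68, 1.94 and 1.26 FPKM in the resistant libraries (log2 fold change 1.68 ± 0.31, adjusted p = 0.00562, limma). HOXB7, expressed in several carcinomas, was at 2.82, 1.72 and 2.36 FPKM in the parental and at 5.51, 6.64 and 6.64 FPKM in the resistant libraries (log2 fold change 1.43 ± 0.22, adjusted p = 0.00282, limma). It was the highest HOXB member of the parental cells, and HOXB6 that of the resistant cells.

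A pair of HOXB genes went from near 0 to a low level. HOXB8, which can hold myeloid progenitors in division, was at 0.163, 0 and 0 FPKM in the parental and at 0.933, 3.16 and 2.15 FPKM in the resistant libraries, with a log2 fold change of 3.83 ± 0.62 (adjusted p = 0.00325, limma). The groups did not overlap, though the resistant libraries varied widely. HOXB4, known for expanding blood stem cells, had a mean of 0.0458 ± 0.0447 FPKM (SD, n = 3) in parental and of 0.843 ± 0.388 FPKM in resistant cells (log2 fold change 2.64 ± 0.53, adjusted p = 0.00759, limma). HOXB9 closed the run of higher genes. It was at 1.29, 0.626 and 1.25 FPKM in the parental and at 0.846, 0.701 and 1.11 FPKM in the resistant libraries, with overlapping groups and an adjusted p of 0.706 (limma). At the other end of the cluster HOXB1 and HOXB2 were listed at 0 in all libraries. The higher members thus formed an unbroken run from HOXB3 to HOXB8. The annotated span of HOXB3 contains HOXB4 and HOXB5 and overlaps HOXB6, and that of HOXB7 contains HOXB8 and HOXB9. HOXB3 and HOXB6 share 385 stretches of their transcripts, 14.5% of those of HOXB6 and 5.0% of those of HOXB3. Reads from there could belong to either gene, so the rises of HOXB3 and HOXB6 are not wholly separate. HOXB4 and HOXB5 shared 0.1% each of their stretches with other annotated genes on the same strand, and HOXB8 shared none.

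Within HOXC the 9 members were all tested, and 5 were higher in resistant cells, 1 was lower and 3 did not pass. Thus 66.7% passed beside 44.4% of all genes, while among protein-coding genes 28.9% were higher and 26.7% lower. Among the 5, HOXC11 passed the filter only through the resistant group, so its call is no separate support. Besides HOXC10 and HOXC11, the genes beside them in the row, HOXC9 and HOXC12, also rose. HOXC9, which sets the thoracic identity of motor neurons, was at 3.33, 2.87 and 3.31 FPKM in the parental and at 5.47, 7.13 and 8.48 FPKM in the resistant libraries (log2 fold change 1.10 ± 0.20, adjusted p = 0.00520, limma). HOXC12 was at 3.10, 2.70 and 3.83 FPKM in the parental and at 7.94, 7.46 and 7.37 FPKM in the resistant libraries (log2 fold change 1.23 ± 0.17, adjusted p = 0.00173, limma). The groups of both genes were clear of each other. At the opposite end, HOXC4 was at 1.12, 1.55 and 1.76 FPKM in the parental and at 5.37, 8.38 and 6.92 FPKM in the resistant libraries (log2 fold change 2.14 ± 0.26, adjusted p = 0.000888, limma). HOXC4 and HOXC6, which moved in opposite directions, share 435 of the 50-base stretches of their transcripts, 16% of those of HOXC4 and 12.7% of those of HOXC6, so reads from there could belong to either gene.

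The remaining HOXC genes did not separate the groups. HOXC13, which is needed for hair and nails, was at 4.03, 5.90 and 4.94 FPKM in the parental and at 5.13, 4.41 and 4.06 FPKM in the resistant libraries (adjusted p = 0.659, limma). It was among the 4 highest members in parental replicates 0 and 1 and in no resistant library. HOXC8 was at 0.866, 1.18 and 1.24 FPKM in the parental and at 0.918, 0.486 and 1.04 FPKM in the resistant libraries (adjusted p = 0.383, limma). HOXC5 was at 0.498, 1.89 and 0.658 FPKM in the parental and at 0.671, 0.964 and 1.18 FPKM in the resistant libraries (adjusted p = 0.928, limma), and 66.4% of its stretches are shared with other annotated genes on the same strand, which makes its level uncertain.

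HOXD was close to silent in both groups. Of its 9 members 5 were listed at 0 in all libraries, and HOXD3, HOXD8 and HOXD10 were above 0 in at most 2 libraries, at 0.138 FPKM or less. HOXD13, the last gene of the cluster and a partner of HOXA13 in the digits and the urogenital tract, was at 0.395, 0.329 and 0.632 FPKM in the parental and at 0.169, 0 and 0 FPKM in the resistant libraries. These values correspond to an estimated 14 to 19 reads in the parental and 0 to 7 reads in the resistant libraries. The log2 fold change was -1.95 ± 0.56 (adjusted p = 0.0310, limma), and the gene did not pass when any library other than resistant replicate 0 was left out (adjusted p of 0.0532 to 0.10).

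**Figure D3:**
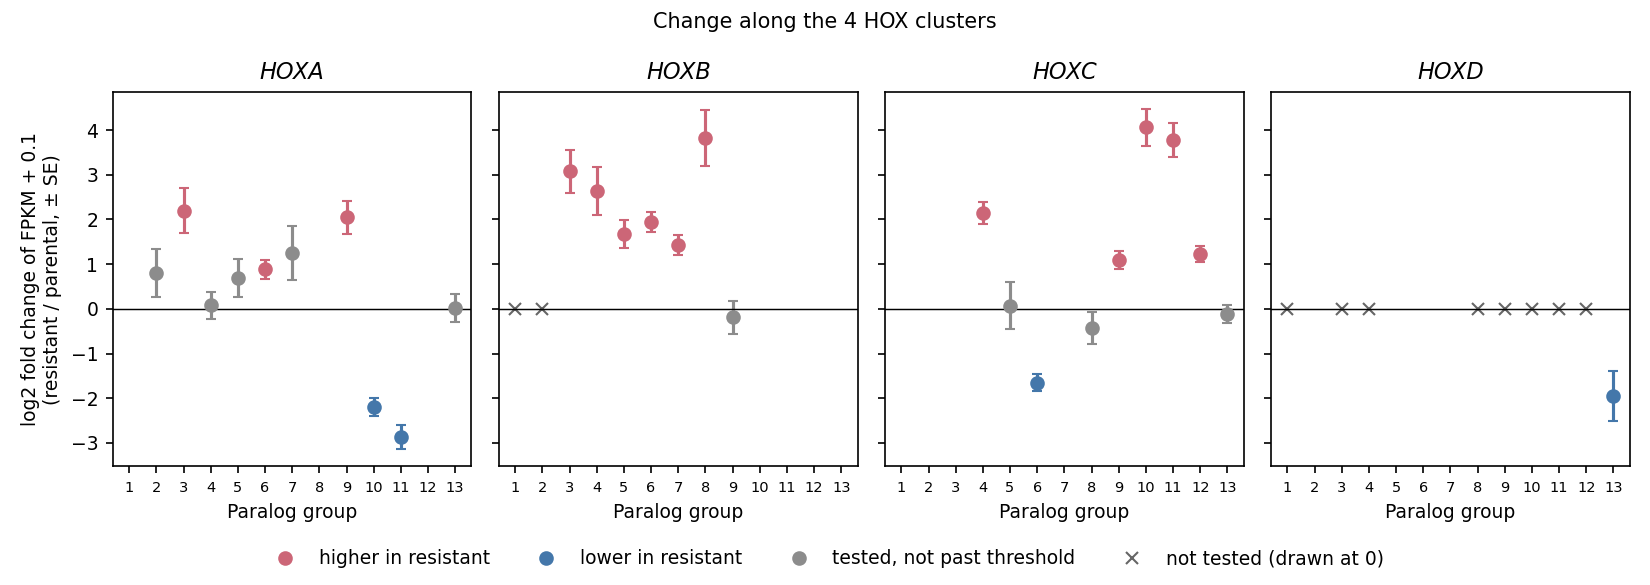
log2 fold change of FPKM + 0.1, resistant against parental, with SE, for the HOX members reported, by paralog number from 1 to 13 and by cluster. Red points were higher and blue points lower at an adjusted p below 0.05 (limma), grey points were tested and did not pass, and crosses at 0 mark members that were not tested. HOXB was higher from group 3 to group 8, HOXA turned from higher at group 9 to lower at groups 10 and 11, and HOXC was higher from group 9 to group 12.

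Summed over its members, HOXB rose the most, while the HOXA sum did not separate the groups. The HOXB sum was 7.53, 4.65 and 6.90 FPKM in the parental and 26.5, 23.8 and 24.3 FPKM in the resistant libraries, a ratio of the means of 3.91. The HOXC sum was 35.1, 32.8 and 38.7 FPKM in the parental and 43.6, 48.5 and 49.5 FPKM in the resistant libraries, a ratio of 1.33, and neither cluster's groups overlapped. The HOXA sum was 40.1, 33.8 and 42.3 FPKM in the parental and 35.7, 32.3 and 43.3 FPKM in the resistant libraries, with overlapping groups and a ratio of 0.958. As sums over chosen members, these carry no test.

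Split by position, the HOXA members 1 to 3 had a ratio of 3.23 and the members 4 to 8 a ratio of 1.70, while the members 9 to 13 had a ratio of 0.327. In HOXC the ratios of the sums ran the other way, at 0.635 for the members 4 to 8 and 2.68 for the members 9 to 13. In none of these 5 parts did the libraries of the groups overlap. HOXA10 made up most of the parental sum of the HOXA members 9 to 13, among which HOXA9 rose and HOXA13 did not pass. HOXC6 made up most of the parental sum of the HOXC members 4 to 8, among which HOXC4 rose and HOXC5 and HOXC8 did not pass. HOXA3 had the highest mean of the HOXA members 1 to 3 in both groups. The ratios of these 3 parts thus largely follow single genes and not all members of a part. Among the HOXC members 9 to 13, by contrast, 4 of 5 were higher in resistant cells and none was lower. One of these, HOXC11, passed the filter only through the resistant group. Among the HOXA members 4 to 8, all 4 had a log2 fold change above 0, but only 1 passed. The sum of all members 9 to 13 over the 4 clusters was 30.2 to 39.2 FPKM in parental and 38.3 to 43.6 FPKM in resistant libraries, which overlapped. Of the summed HOX FPKM, HOXA gave 47.7% ± 0.466 (SD, n = 3) in parental and 33.8% ± 3.03 in resistant cells, HOXB 7.77% ± 1.28 and 22.8% ± 2.12, and HOXC 43.9% ± 1.81 and 43.2% ± 2.76.

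**Figure D4:**
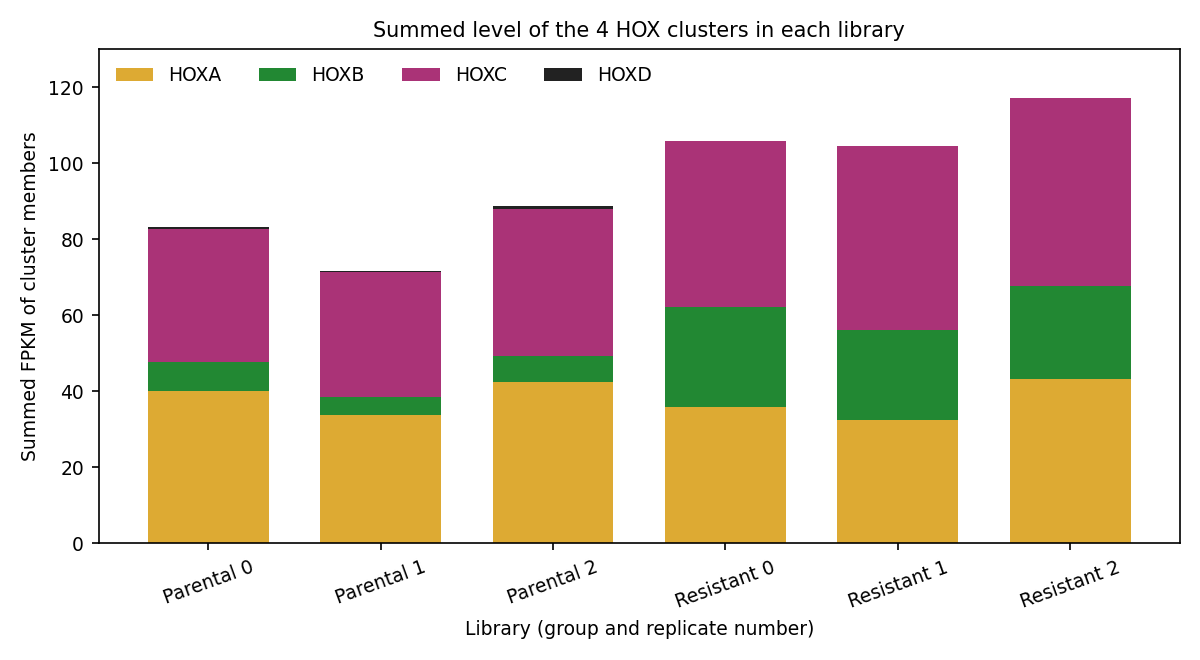
Summed FPKM of the HOXA, HOXB, HOXC and HOXD members, stacked, in each of the 3 parental and 3 resistant libraries. The total was 71.7 to 88.7 FPKM in parental and 105 to 117 FPKM in resistant libraries, and the HOXB part was larger in every resistant library.

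The clusters also give rise to non-coding RNAs, several of them antisense to HOX genes, and these followed their neighbours only in part. Of 23 such entries in the table, 13 were tested, and 5 were higher in resistant cells and 3 lower, 61.5% of those tested beside 44.4% of all genes. Entries listed at 0 throughout a group passed the filter only through the other group and so had to differ in their means. Here these were HOTAIR, HOXB-AS3, HOXA10-AS, HAGLROS and HOXB-AS1, and below SKAP1, and their p-values are no separate support. HOXB-AS1, at 0 in the resistant libraries, did not pass the threshold (adjusted p = 0.137, limma). The same limit holds for HOXA-AS2, and below for PKNOX2, CRABP1 and EVX1, whose mean in a group was below 0.1 FPKM. HOTAIR, transcribed between HOXC12 and HOXC11 on the opposite strand and known to bind Polycomb complexes, was listed at 0 in every parental library and at 0.956, 0.834 and 0.398 FPKM in the resistant libraries (adjusted p = 0.00260, limma). HOXC-AS3, beside HOXC10, was at 0.157, 0 and 0.456 FPKM in the parental and at 2.76, 7.60 and 2.91 FPKM in the resistant libraries (log2 fold change 4.06 ± 0.72, adjusted p = 0.00477, limma). Both were higher together with the HOXC genes around them. HOXB-AS3, antisense to HOXB5 and HOXB6, was listed at 0 in every parental library and at 2.07, 0.491 and 2.55 FPKM in the resistant libraries (adjusted p = 0.00333, limma).

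On HOXA, the antisense RNAs of the genes that fell went different ways. HOXA11-AS fell with HOXA11, from 2.52, 3.52 and 3.26 FPKM to 0.741, 0.626 and 1.02 FPKM (log2 fold change -1.84 ± 0.28, adjusted p = 0.00235, limma). HOXA10-AS rose while HOXA10 fell, being listed at 0 in every parental library and at 0.846, 0.472 and 0.365 FPKM in the resistant libraries (adjusted p = 0.00400, limma). HOXA10-AS also overlaps HOXA9, which rose. Near HOXA3, HOXA-AS2 went from a mean of 0.0648 ± 0.0634 FPKM (SD, n = 3) to 0.796 ± 0.0843 FPKM (adjusted p = 0.00473, limma). HOXC13-AS was lower, with means of 1.74 and 0.532 FPKM (adjusted p = 0.00586, limma), while its partner HOXC13 did not pass. HAGLROS, of the HOXD cluster, was listed at 0 in the resistant libraries, against 0.322, 0.515 and 0.530 FPKM in the parental ones (adjusted p = 0.00398, limma). Whether the counting used strand is not stated, so reads of a HOX gene and its antisense partner cannot be told apart where they overlap. Such stretches were 25.4% of those of HOXA11, 15% of HOXA10, 29.4% of HOXA6, 61.9% of HOXA7 and 10.6% of HOXB6. For HOXA3 and HOXA9, which were higher, they were 10.6% and 10.4%.

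HOX proteins bind DNA together with cofactors of the PBX, MEIS and PKNOX families, and some of these cofactors differed between the groups. All 9 listed cofactors were tested, and 2 were higher in resistant cells and 2 lower, 44.4% of those tested, the same share as over all genes. MEIS3 was at 0.0926, 0.564 and 0.0438 FPKM in the parental and at 5.28, 8.58 and 12.1 FPKM in the resistant libraries (log2 fold change 4.97 ± 0.64, adjusted p = 0.00122, limma). PBX4 was lower, at 3.84, 3.89 and 3.08 FPKM in the parental and at 1.17, 0.690 and 1.35 FPKM in the resistant libraries (log2 fold change -1.70 ± 0.30, adjusted p = 0.00432, limma). PKNOX2 went from a mean of 0.862 ± 0.198 FPKM (SD, n = 3) to 0.0214 ± 0.0190 FPKM (adjusted p = 0.00149, limma), and passed the filter only through the parental group. PKNOX1 and PBX2, the most abundant cofactors of the parental cells, had means of 13.5 and 10.8 FPKM there and of 11.8 and 10.8 FPKM in resistant cells, and neither passed.

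Regulators of HOX transcription moved in both directions. Of 49 listed genes 44 were tested, and 11 were higher in resistant cells and 10 lower, 47.7% of those tested beside 44.4% of all genes. Among the 19 Polycomb genes, which keep HOX clusters silent, 6 were higher and 3 lower, 47.4% of those tested. EZH2, the enzyme that methylates histone H3 at lysine 27, was at 19.9, 22.5 and 24.5 FPKM in the parental and at 32.7, 31.7 and 34.0 FPKM in the resistant libraries (log2 fold change 0.56 ± 0.10, adjusted p = 0.00489, limma). Its partners in the complex, SUZ12 and EED, had means of 22.2 and 16.9 FPKM in parental and of 20.1 and 19.4 FPKM in resistant cells, and neither passed. Of the other main Polycomb complex, RING1 rose from a mean of 19.2 ± 0.514 FPKM to 32.9 ± 1.72 FPKM (SD, n = 3) (adjusted p = 0.000535, limma).

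On the activating side, 2 of 13 trithorax and demethylase genes were higher and 2 lower, 30.8% of those tested beside 44.4% of all genes. MEN1 rose from a mean of 32.6 to 51.3 FPKM and PSIP1 from 43.2 to 62.2 FPKM, while KMT2D and KDM6A were lower. KDM6A, which removes the mark that EZH2 sets, was at 156, 160 and 176 FPKM in the parental and at 17.8, 25.3 and 17.7 FPKM in the resistant libraries, and fell by 3.03 ± 0.15 on the log2 scale (adjusted p = 3.42e-05, limma). KMT2A, the methyltransferase best known for keeping HOX genes active, had means of 28.8 and 36.2 FPKM and did not pass (adjusted p = 0.0597, limma). The related demethylase KDM6B had means of 51.5 and 47.1 FPKM and an adjusted p of 0.664.

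Retinoic acid and CDX proteins switch HOX genes on in the embryo, and of this group 12 of 17 genes were tested, 3 of them higher and 5 lower in resistant cells, 66.7% of those tested beside 44.4% of all genes. ALDH1A3, an enzyme that makes retinoic acid, was at 26.6, 33.2 and 25.5 FPKM in the parental and at 0.154, 0.343 and 0.770 FPKM in the resistant libraries (log2 fold change -5.94 ± 0.44, adjusted p = 0.000141, limma). The receptor RXRA was at 40.8, 40.3 and 39.8 FPKM in the parental and at 7.80, 8.13 and 8.78 FPKM in the resistant libraries (log2 fold change -2.28 ± 0.09, adjusted p = 1.48e-05, limma). Against these, the receptor RARG rose from a mean of 13.4 ± 1.14 FPKM to 33.2 ± 2.05 FPKM (SD, n = 3) (adjusted p = 0.000173, limma). CRABP1, which binds retinoic acid in the cytoplasm, went from 0.0816, 0 and 0 FPKM to 4.39, 5.32 and 6.60 FPKM (adjusted p = 0.000105, limma). With these parental values, CRABP1 passed the filter only through the resistant group. CDX1 and CDX4 were listed at 0 in all libraries, and CDX2 did not pass the filter.

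**Figure D5:**
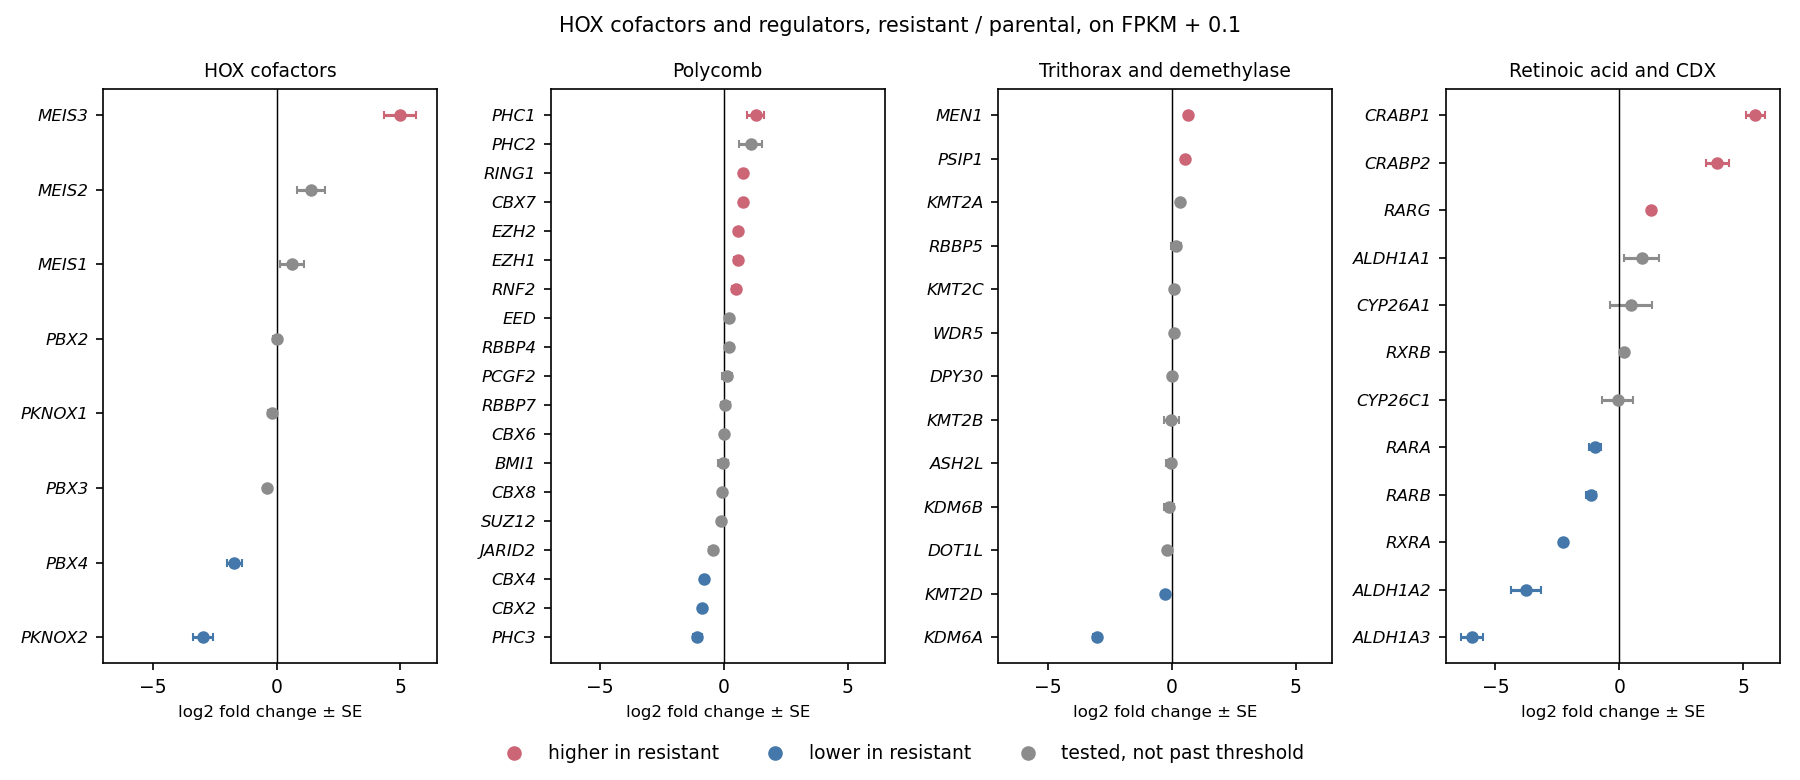
log2 fold change of FPKM + 0.1, resistant against parental, with SE, for the tested HOX cofactors reported and for the Polycomb, the trithorax and demethylase, and the retinoic acid and CDX genes, ordered by value. Red points were higher and blue points lower at an adjusted p below 0.05 (limma), and grey points did not pass. MEIS3 and CRABP1 had the highest values and ALDH1A3 the lowest, at -5.94.

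Of 15 genes that flank the clusters, 14 were tested, and 6 were higher in resistant cells and 2 lower, 57.1% of those tested beside 44.4% of all genes. EVX1, a homeobox gene next to HOXA13, was at 0.0880, 0.129 and 0.0705 FPKM in the parental and at 1.39, 0.793 and 1.48 FPKM in the resistant libraries (log2 fold change 2.72 ± 0.40, adjusted p = 0.00205, limma), while HOXA13 itself did not pass. With a parental mean below 0.1 FPKM, EVX1 passed the filter only through the resistant group. HIBADH, the next gene along and an enzyme of valine breakdown, rose from a mean of 28.4 ± 1.35 FPKM to 65.3 ± 3.54 FPKM (SD, n = 3) (adjusted p = 8.37e-05, limma). SKAP2, at the other end of HOXA, had means of 17.1 and 14.2 FPKM and did not pass.

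Around the other clusters, SKAP1, beside HOXB1, was listed at 0 in every parental library and at 1.18, 0.385 and 0.641 FPKM in the resistant libraries (adjusted p = 0.00370, limma). PRAC1, a small prostate and colon gene at the other end of HOXB, was at 64.7, 61.7 and 65.4 FPKM in the parental and at 57.9, 73.1 and 64.4 FPKM in the resistant libraries (adjusted p = 0.884, limma). The high level of PRAC1 thus did not separate the groups. Near HOXC, CBX5, ATP5G2 and CALCOCO1 were higher, and CBX5, which encodes a heterochromatin protein, had means of 45.3 ± 1.89 and 90.3 ± 6.02 FPKM (SD, n = 3; adjusted p = 0.000169, limma). Near HOXD, HNRNPA3 and MTX2 were lower, with means of 13.7 and 26.7 FPKM in parental and of 7.23 and 19.9 FPKM in resistant cells (adjusted p = 0.000942 and 0.0262, limma).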

How the data were processed

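The data were 6 RNA-Seq libraries, 3 parental and 3 resistant. The authors' steps were trimming of the 50 bp single-end reads (TrimGalore 0.4.3), alignment against GRCh38 and GENCODE 25 (STAR 2.5.3) and estimation of the deposited FPKM values (Cufflinks 2.2.1). The submitters' processing notes instead list mm10, Trimmomatic 0.27 and FastQC 0.10.1, while the identifiers of the table are human. The table names no unit, and FPKM was taken from the methods and from the column totals. The labels name both a TruSeq V2 and a TruSeq Stranded Total RNA kit, and whether counting used strand is not given in the sources used here.

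The comparison used limma 3.58.1 (R 4.3.3), with its moderated two-sided test and a trend of variance on mean level, on log2(FPKM + 0.1) of the 24468 genes that averaged 0.1 FPKM or more, with Benjamini-Hochberg adjustment over all of them and a threshold of 0.05. An exact permutation test of a single gene with 3 libraries a group cannot go below p = 0.1 and was not used. FPKM holds no counts, so no counting interval is given, and no fold change is given against a group listed at 0. Reads were estimated from the smallest FPKM steps of single-transcript genes between 600 and 8000 bases long, with fragments of 200 bases assumed. Positions, transcripts and homeobox sequences were taken from GENCODE 44 on GRCh38 with Python 3.11.15, and all 38 members matched by identifier. The fit was tested on simulated data.

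Values of every library are given for members averaging 1 FPKM or more in either group, and others by means, ranges and counts. From each of 4 lists (HOX-cluster non-coding RNAs, HOX cofactors, HOX regulators and flanking genes), the text names up to 5 called genes with the smallest adjusted p, core genes and genes next to a HOX gene. Some genes covered by these rules are not reported here. The members and lists were chosen with earlier results of these data known. Alternatives covered the pseudocount, the filter, the scaling, the variance trend, a replicate block, the thresholds and each library left out. No set test was run, and the authors' other measurements were not used here.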

Additional observations from a re-analysis of the deposited data

How the results depend on the processing

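The counts of 14 higher and 4 lower HOX genes stayed within 12 to 15 and 3 to 5 under all alternatives. At the threshold of 0.05, only HOXA3, HOXA6 and HOXD13 of the called genes lost the call under an alternative that gave them a value, while an adjusted p below 0.01 left 12 higher and 3 lower and a change of at least 2-fold left 13 and 4. Of the values for single members, 385 kept their direction and their side of the threshold, 10 lost it, 3 gained it and 12 changed sign, all 12 in genes that did not pass. The sign changes were those of HOXA4 (-0.070 after quantile normalization, -0.017 to 0.21 with a library left out), HOXA13 (-0.18, and -0.11 to 0.12), HOXC5 (-0.067 after quantile normalization, -0.0022 with a pseudocount of 1 FPKM, and -0.27 to 0.59 with a library left out) and HOXC13 (-0.25 to 0.016 with a library left out). With a mean of at least 1 FPKM required, the number of lower cofactors was 1 and that of higher non-coding RNAs was 1, since fewer genes were tested, and without the variance trend 1 flanking gene was lower; the cause of the last was not tested. Scaling by median ratios moved the median log2 fold change of all genes by 0.10, to 0.05, and that of the HOX genes to 1.10, so that their distance from all genes was 1.05 with either scaling. The numbers of the replicates did not pair the libraries, since deviations of same-numbered libraries correlated at 0.0080, 0.017 and -0.0030. With a replicate block, 14 HOX genes were higher and 3 lower, 9463 of all genes passed in place of 10868, and HOXD13 had an adjusted p of 0.0682 (limma). Low depth limits genes with few estimated reads in a group, among them HOXA2, HOXB4, HOXB8, HOXC11 and HOXD13.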

Other observations

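Beyond the named HOX genes and the listed non-coding RNAs, 29 other entries of the table lie in the HOX loci, of which 15 were tested, 2 were higher in resistant cells, 1 was lower and 11 were listed at 0 in every library. AC012531.2, a short RNA entry in the locus of HOTAIR and HOXC11, was listed at 0 in every parental library and at 10.9, 10.9 and 18.0 FPKM in the resistant libraries. RP1-170O19.23, a non-coding RNA that shares 247 of its 50-base stretches with HOXA3 on the same strand, was listed at 0 in every parental library and at 0.448, 1.83 and 0.628 FPKM in the resistant libraries. AC012531.25, a non-coding RNA of the HOXC locus, was at 3.31, 3.96 and 4.36 FPKM in the parental and at 1.93, 1.21 and 1.65 FPKM in the resistant libraries. These 3 entries were chosen after their values were seen.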
